A study of Arabidopsis thaliana with 6 samples.

Results

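The 10 genes described here are the morning-phased transcription factors of the Arabidopsis circadian clock and their close partners: CCA1, LHY, the REVEILLE genes RVE1, RVE4, RVE6, RVE7 and RVE8, the coactivator genes LNK1 and LNK2, and PRR9. They were taken by locus identifier from a table of 32962 genes, and all 10 were found. In EsANAC029-OE plants 3 of the 10 fell (LNK2, RVE7 and CCA1) and none rose, where 3.58% of all tested genes were called lower and 7.89% in either direction. CCA1 was high enough to be tested only through its wild-type libraries. Another 4 did not pass the test, and 3 (LHY, RVE1 and RVE8) were too low to be tested.

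The plant clock is a chain of transcription factors that act at successive times of day. CCA1 and LHY are related single-repeat MYB proteins that peak around dawn and repress genes of the evening, among them TOC1. RVE8, RVE4 and RVE6 carry the same kind of MYB domain but activate afternoon and evening genes, with LNK1 and LNK2 as their coactivators, while PRR9 is the earliest of the pseudo-response regulators that shut CCA1 and LHY down during the day. In leaves these factors time photosynthesis, growth and flowering.

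Messenger RNA was sequenced with paired 150-base reads from seedlings 25 days old, kept at 25 °C in long days (16 h light, then 8 h dark). The 2 groups are wild type (Col-0) and EsANAC029-OE, which overexpresses EsANAC029, a NAC-domain factor of the forage grass Elymus sibiricus, with 3 libraries each. The promoter that drives the transgene, the number of transgenic lines, whether plants were pooled and whether replicates came from separate plantings are not given in the labels, so p-values measure the spread between these libraries. The hour of harvest is not given either, and its part in the results on these time-of-day genes was not tested.

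The libraries held 19608819 to 21715274 reads in genes. EsANAC029-OE replicate 1 stood apart, with correlations of 0.691 to 0.734 with the wild-type libraries on log2(FPKM + 1), against 0.857 to 0.899 for replicates 2 and 3. The samples are labelled as seedlings. The 4 leaf markers checked summed to 36995 to 44257 FPKM in wild type and to 4348, 13771 and 21796 FPKM in EsANAC029-OE replicates 1, 2 and 3, and each of the 4 was lower in every EsANAC029-OE library. None of the 4 passed limma's test. The 6 root markers summed to 1.23 to 6.97 FPKM in wild type and 0.186 to 106 FPKM in EsANAC029-OE. WER, EXP7 and COBL9, the root epidermis and root hair genes, held at most 0.179 FPKM in any library, and the 4 flower markers were under 1 FPKM throughout. The 2 seed markers summed to at most 2.25 FPKM. PYK10, an abundant root glucosidase, reached 104 FPKM in EsANAC029-OE replicate 2 and at most 6.91 FPKM elsewhere. The root markers PHT1-1 and IRT1 were also highest in that library, at 1.05 and 0.957 FPKM, against at most 0.162 and 0.142 FPKM elsewhere. The seed marker 2S1 held 2.18 FPKM there and at most 0.214 FPKM elsewhere. The part of these tissue markers in the results was not tested, and fewer cells of a type cannot be told apart from less RNA per cell.

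The 250 bases upstream of the annotated starts are shown for 4 members, since CCA1, LHY and PRR9 carry a G-box and RVE7 an evening element there. The G-box, searched as CACGTG, is bound by light-signalling factors of the bHLH and bZIP families. The evening element, searched as AAAATATCT, is the site that CCA1, LHY and RVE8 bind. The related CCA1-binding site was searched as AAAAATCT and the LUX-binding site as GATTCG. Both strands were searched, and matches are in capitals. Sequences are from RefSeq assembly TAIR10.1, read 5′ to 3′ on the strand of the gene.
CCA1 (chr2:19245341-19245590, plus strand): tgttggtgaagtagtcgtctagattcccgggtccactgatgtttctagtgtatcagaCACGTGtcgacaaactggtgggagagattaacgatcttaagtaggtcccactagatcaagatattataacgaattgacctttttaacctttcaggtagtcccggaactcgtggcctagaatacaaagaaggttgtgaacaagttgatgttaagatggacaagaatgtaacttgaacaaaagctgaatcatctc
LHY (chr1:37872-38121, minus strand): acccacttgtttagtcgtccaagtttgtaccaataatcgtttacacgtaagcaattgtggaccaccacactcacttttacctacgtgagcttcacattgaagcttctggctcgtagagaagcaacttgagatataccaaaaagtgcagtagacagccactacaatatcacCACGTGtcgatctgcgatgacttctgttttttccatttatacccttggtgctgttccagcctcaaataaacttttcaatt
RVE7 (chr1:6308244-6308493, minus strand): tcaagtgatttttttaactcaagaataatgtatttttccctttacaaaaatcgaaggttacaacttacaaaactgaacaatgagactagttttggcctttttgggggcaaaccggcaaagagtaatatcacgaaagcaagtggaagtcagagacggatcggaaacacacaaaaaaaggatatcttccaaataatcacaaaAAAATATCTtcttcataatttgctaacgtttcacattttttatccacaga
PRR9 (chr2:19232357-19232606, plus strand): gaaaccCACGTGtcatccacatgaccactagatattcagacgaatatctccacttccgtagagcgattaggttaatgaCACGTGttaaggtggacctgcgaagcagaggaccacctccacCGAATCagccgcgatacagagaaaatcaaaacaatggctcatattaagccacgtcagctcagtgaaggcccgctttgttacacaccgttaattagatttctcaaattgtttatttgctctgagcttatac

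A G-box stood in 4 of the 10 member windows (CCA1, LHY, RVE1 and PRR9), against 5.91% of 32674 windows of the same length upstream of all nuclear genes. An evening element stood in 1 (RVE7), against 2.23% of all windows. The CCA1-binding site was matched in RVE6, against 6.38%, and the LUX-binding site in PRR9, on the minus strand and in capitals above after both G-boxes, against 7.89%. None of the matches overlapped each other. Of 6 other REVEILLE and LNK genes 4 held a G-box (RVE2, RVE3, RVE5 and LNK3). Among 13 day and evening clock genes 5 held an evening element (PRR5, TOC1, LUX, BOA and FKF1). Of the same 13 genes 3 held a G-box (PRR7, LUX and BOA). RVE4, RVE8, LNK1 and LNK2 held none of these letters in the window. A match is a run of letters and not a measured binding site.

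Levels are given as FPKM, fragments scaled by gene length and by library size on the authors' scale, so that genes can be set side by side. In wild type RVE4 stood highest at 23.7 ± 0.578 FPKM (mean ± SD, n = 3 here and below), followed by LNK2 at 19.5 ± 2.27 FPKM. LNK1, RVE6 and RVE7 came next, and their wild-type values overlapped each other between 3.78 and 8.89 FPKM. CCA1, PRR9, RVE1, RVE8 and LHY followed in that order without overlap, from 1.81 ± 0.523 FPKM for CCA1 to 0.135 ± 0.0663 FPKM for LHY. The dawn genes CCA1 and LHY were in the lower part of the order, while TOC1, the evening gene that CCA1 and LHY repress, was at 84.4 ± 4.84 FPKM and ELF4, an evening complex gene, at 72.2 ± 1.3 FPKM in the same libraries. In EsANAC029-OE RVE4 was again highest, and LNK2 had moved below RVE6 and LNK1, whose values overlapped its own. CCA1 had moved below RVE1, PRR9 and RVE8, each of which lay above it within every EsANAC029-OE library. In replicate 3 CCA1 and PRR9 rested on 1 read each. Between these libraries the values of PRR9 and RVE8 overlapped those of CCA1, while those of RVE1 did not.

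**Figure D1:**
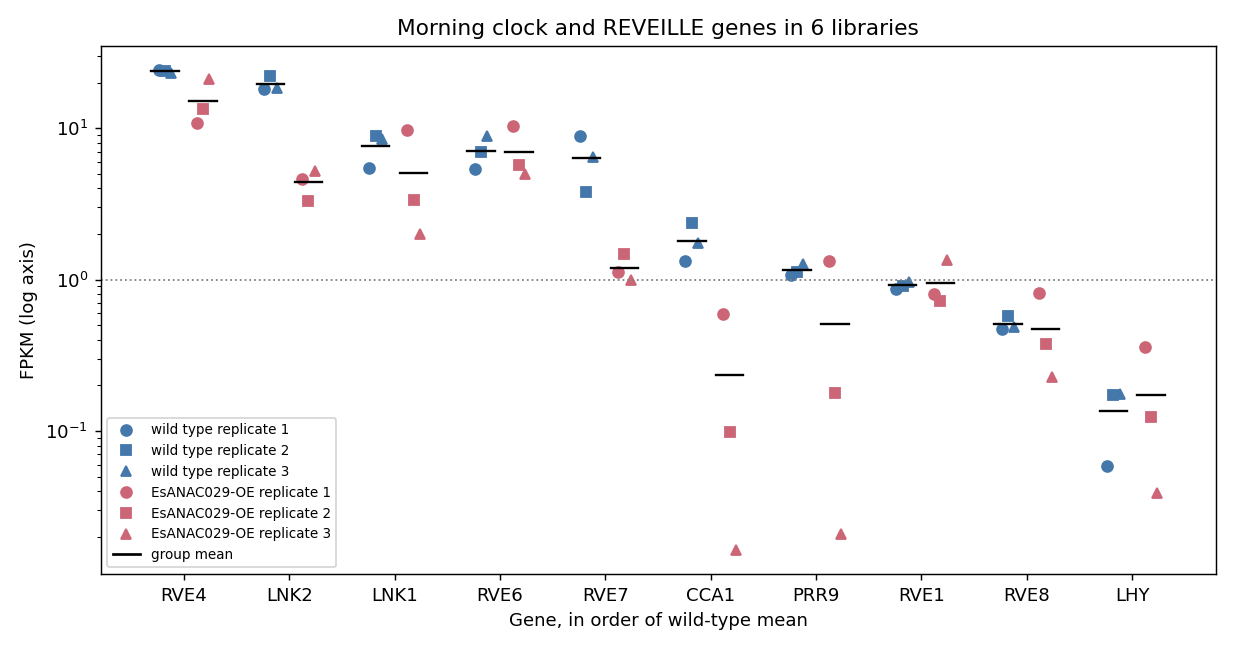
FPKM of the 10 genes in each of the 6 libraries on a log axis, with bars for the group means and a dotted line at 1 FPKM. LNK2, RVE7, CCA1 and RVE4 lie lower in all 3 EsANAC029-OE libraries (red) than in any wild-type library (blue), and LNK1, RVE6, PRR9, RVE8 and LHY are highest in EsANAC029-OE replicate 1.

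Genes are said to have risen or fallen, and are called, where limma's p, adjusted by Benjamini-Hochberg over 17221 tested genes, was under 0.05. A gene was tested if 3 or more libraries reached 1 FPKM. Log2 fold changes are on log2(FPKM + 1), EsANAC029-OE minus wild type, so they understate the change of low genes. Of all tested genes 7.89% were called, 3.58% lower and 4.31% higher in EsANAC029-OE. Of the 10 members 3 were called lower and none higher. For 4 of the 7 tested members, namely LNK2, RVE7, CCA1 and RVE4, all EsANAC029-OE values lay under all wild-type values, as did those of 20.3% of all tested genes. CCA1 passed the filter only through its 3 wild-type values, with every EsANAC029-OE value under 1 FPKM, so its call is no support for that count. The median log2 difference over the 10 members, the untested ones included, was −0.64, beside −0.00914 over all tested genes. Without EsANAC029-OE replicate 1, LNK1 and PRR9 also fell, which gave 5 called members where 9.57% of all tested genes were called lower. The filter was not applied anew there. Among the libraries left, CCA1 and PRR9 reached 1 FPKM only in wild type, so their calls are no support for that count. Without wild type replicate 3 no member was called, without wild type replicate 1 or EsANAC029-OE replicate 2 only LNK2 was, and without EsANAC029-OE replicate 3 LNK2 and RVE4 were.

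LNK2 (AT3G54500, TAIR10 chromosome 3, 20175370 to 20179070), a coactivator that RVE8 and RVE4 recruit to evening genes, had the lowest adjusted p of the members. Its wild-type values were 18, 22.1 and 18.4 FPKM, and its EsANAC029-OE values 4.58, 3.32 and 5.22 FPKM. All 3 overexpressor libraries were low, replicate 1 included, and the groups lay far apart. LNK2 fell from 19.5 ± 2.27 to 4.37 ± 0.967 FPKM, to 22.4% of the wild-type mean (log2 fold change −1.94, SE 0.197, limma adjusted p = 0.00784). Without wild type replicate 3 the adjusted p by limma was 0.0641, with a log2 fold change of −1.98. A long noncoding RNA gene and NRPE5C overlap the locus on the opposite strand and were at or below 0.172 FPKM in every library.

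LNK1 (AT5G64170), the partner coactivator, was at 5.48, 8.82 and 8.42 FPKM in the controls, while the overexpressor libraries held 9.73, 3.35 and 2.00 FPKM. Replicate 1 was above every wild-type library and replicates 2 and 3 below every one. The difference stayed above the threshold (log2 fold change −0.70, SE 0.482, limma adjusted p = 0.386). Without EsANAC029-OE replicate 1 it fell by 1.22 on the log2 scale (adjusted p = 0.0324). The neighbouring gene AT5G64160 overlaps LNK1 by 245 bases on the opposite strand at 7.69 to 11.3 FPKM, and since strand use in counting is not given, reads of the 2 genes cannot be told apart there.

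Of the other LNK genes, which share the domain that binds REVEILLE proteins, LNK4 (AT5G06980) showed a larger difference on log2(FPKM + 1) than any member tested. That scale understates the change of low genes such as CCA1, and the order on other scales was not compared. LNK4 was at 8.91, 9.57 and 12.4 FPKM for wild type, with 1.11, 0.540 and 0.600 FPKM for EsANAC029-OE, and every overexpressor value was low. Its mean fell from 10.3 ± 1.88 FPKM to 0.749 ± 0.311 FPKM (log2 fold change −2.69, SE 0.216, limma adjusted p = 0.00509), and it was called with each library left out in turn. Without EsANAC029-OE replicate 1, only wild-type libraries reached 1 FPKM for LNK4, so that call is no support. LNK3 (AT3G12320) was at 2.34, 2.18 and 3.52 FPKM in the wild-type libraries, against 3.07, 0.909 and 0.836 FPKM in EsANAC029-OE replicates 1 to 3, again with replicates 2 and 3 below every control. It was not called (log2 fold change −0.58, limma adjusted p = 0.334), and without EsANAC029-OE replicate 1 it fell by 0.958 (limma adjusted p = 0.0353). Among the libraries left then, only those of wild type reached 1 FPKM for LNK3.

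CCA1 (AT2G46830, chromosome 2, 19245591 to 19248915), the dawn-phased repressor, was low in every library. Wild type held 1.32, 2.36 and 1.73 FPKM, from 72, 120 and 87 reads. EsANAC029-OE held 0.592, 0.0987 and 0.0163 FPKM, from 37, 7 and 1 reads. The groups did not overlap, and replicate 1 was the highest of the overexpressor libraries. CCA1 fell from 1.81 ± 0.523 FPKM to 0.236 ± 0.311 FPKM (log2 fold change −1.20, SE 0.264, limma adjusted p = 0.0470). With a pseudocount of 0.1 the log2 fold change was −2.88 (adjusted p = 0.0749) and by limma-voom on the reads −3.92 (adjusted p = 0.0696). The adjusted p by limma was also above the threshold without wild type replicate 1 (0.120), 2 (0.171) or 3 (0.174) and without EsANAC029-OE replicate 2 (0.107) or 3 (0.0817).

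LHY (AT1G01060, chromosome 1, 33365 to 37871), the closest relative of CCA1 and partly redundant with it, was lower still. It was at 0.0585, 0.172 and 0.174 FPKM in wild type, from 4, 11 and 11 reads. The overexpressor gave 0.356, 0.123 and 0.0389 FPKM, from 28, 11 and 3 reads. Replicate 1 was above every wild-type library, replicate 3 below every one, and the groups overlapped. LHY did not reach the filter. When all 10 members were tested by limma-voom, with a filter of 10 reads chosen after seeing the data, its log2 fold change was 0.00922 (adjusted p = 0.996). With 3 reads as the floor, which covers counting error only and equals 0.138 to 0.153 CPM, LHY lay at or next to that limit in its lowest libraries.

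RVE7 (AT1G18330, chromosome 1, 6305814 to 6308243), also called EPR1 for its early response to phytochrome, fell with little spread in the overexpressor. Wild type held 8.85, 3.78 and 6.40 FPKM, and EsANAC029-OE 1.12, 1.48 and 0.986 FPKM. The groups did not overlap, and the spread lay in wild type. RVE7 fell from 6.34 ± 2.53 FPKM to 1.19 ± 0.255 FPKM, to 18.8% of the wild-type mean (log2 fold change −1.69, SE 0.295, limma adjusted p = 0.0292). The adjusted p by limma was above the threshold without wild type replicate 1 (0.0953) or 3 (0.130) and without EsANAC029-OE replicate 2 (0.0688) or 3 (0.0532). AT3G10113, a close relative that the table names RVE7L, held at most 1 read in any library.

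RVE1 (AT5G17300), which raises auxin synthesis through YUC8 and promotes stem growth, lay just under the filter. It was at 0.869, 0.903 and 0.968 FPKM in the controls, while the overexpressor libraries held 0.799, 0.723 and 1.34 FPKM. Replicate 3 was above and replicates 1 and 2 below all wild-type libraries. By limma-voom with the filter of 10 reads its log2 fold change was −0.00436 (adjusted p = 0.996).

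Among the activators of the family, RVE4 (AT5G02840), which acts beside RVE8, was at 24.2, 23.9 and 23.1 FPKM for wild type, with 10.8, 13.3 and 21.3 FPKM for EsANAC029-OE. All overexpressor values were lower, replicate 3 only slightly so. The mean was 23.7 ± 0.578 FPKM against 15.1 ± 5.46 FPKM, and the test was not passed (log2 fold change −0.67, SE 0.252, limma adjusted p = 0.148). Without EsANAC029-OE replicate 3 RVE4 fell by 0.928 (adjusted p = 0.0430).

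RVE6 (AT5G52660), a weaker activator of the same group, was at 5.36, 7.0 and 8.89 FPKM in the wild-type libraries, against 10.3, 5.66 and 4.97 FPKM in EsANAC029-OE replicates 1 to 3. The groups overlapped, with replicate 1 the highest and replicate 3 the lowest of all libraries (log2 fold change −0.05, SE 0.303, limma adjusted p = 0.925; the sign turned to 0.26 with scaling by library total). RVE8 (AT3G09600), the main activator of evening-element genes, was at 0.470, 0.571 and 0.486 FPKM in the controls, while the overexpressor libraries held 0.817, 0.377 and 0.227 FPKM, from 12 to 44 reads. As for LHY and LNK1, EsANAC029-OE replicate 1 was the highest and replicate 3 the lowest of the 6 libraries, and RVE8 was not tested at the filter used. By limma-voom with the filter of 10 reads its log2 fold change was −0.30 (adjusted p = 0.764).

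Of the 6 REVEILLE and LNK genes outside the member list, 4 were tested, LNK4 fell and none rose, beside 3.58% of all tested genes called lower. RVE2 (AT5G37260), a MYB gene also called CIR1, was at 12.2, 5.09 and 13 FPKM for wild type, with 10.8, 12.5 and 37.9 FPKM for EsANAC029-OE, where replicate 3 alone was high (log2 fold change 0.82, limma adjusted p = 0.373). RVE5 (AT4G01280) was at 4.13 ± 0.149 and 4.77 ± 1.46 FPKM (log2 fold change 0.14, limma adjusted p = 0.714). A neighbouring gene on the opposite strand overlaps RVE5 by 681 bases at 18.7 to 46.5 FPKM, where reads of both cannot be told apart. RVE3 (AT1G01520) and AT3G10113 held at most 7 reads in any library and were not tested.

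PRR9 (AT2G46790, chromosome 2, 19232607 to 19235179), the morning pseudo-response regulator, was even across wild type and widely spread in the overexpressor. Wild type held 1.08, 1.13 and 1.27 FPKM, from 46, 45 and 50 reads. EsANAC029-OE held 1.32, 0.179 and 0.0207 FPKM, from 65, 10 and 1 reads. Replicate 1 was slightly above every wild-type library, and replicates 2 and 3 were far below. Its difference was not called (log2 fold change −0.61, SE 0.34, limma adjusted p = 0.288). Without EsANAC029-OE replicate 1 PRR9 fell by 0.974 (limma adjusted p = 0.0252), but only its wild-type values then reached 1 FPKM.

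**Figure D2:**
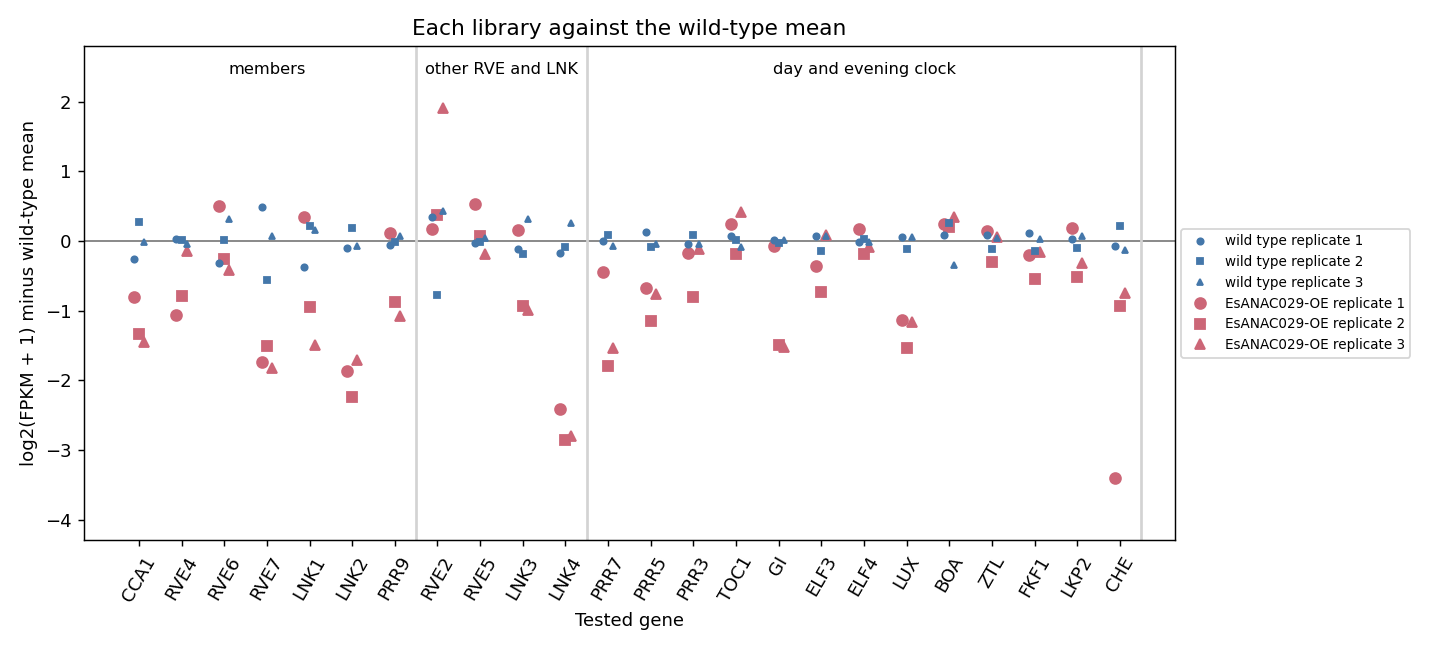
Difference of each library from the wild-type mean on log2(FPKM + 1) for the tested members, the other REVEILLE and LNK genes and 13 day and evening clock genes; large red symbols are EsANAC029-OE libraries and small blue ones wild type. LNK2, RVE7 and LNK4 are low in all 3 overexpressor libraries, while LNK1, PRR9, LNK3 and GI are low in replicates 2 and 3 and near the wild-type mean in replicate 1.

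Clock genes of the day and evening were read from a list of 13, which was not chosen as targets of the members. Of these 2 fell and none rose, beside 3.58% of all tested genes called lower, and their median log2 fold change was −0.33. LUX (AT3G46640), the DNA-binding subunit of the evening complex, was at 40.7, 35.8 and 40.8 FPKM in the wild-type libraries, against 17.2, 12.8 and 16.8 FPKM in EsANAC029-OE replicates 1 to 3. It fell in all 3 overexpressor libraries alike (log2 fold change −1.28, SE 0.173, limma adjusted p = 0.0167). PRR5 (AT5G24470), a direct target of RVE8, fell from 29.3 ± 2.45 FPKM to 15.8 ± 2.78 FPKM (log2 fold change −0.86, SE 0.182, limma adjusted p = 0.0430). LUX was not called without wild type replicate 1, 2 or 3 (adjusted p by limma 0.0818, 0.0725 and 0.10), and PRR5 was called only when none or EsANAC029-OE replicate 1 was left out (0.0615 to 0.162 otherwise).

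TOC1 (AT5G61380), the evening repressor, was at 88.6, 85.5 and 79.1 FPKM in the controls, while the overexpressor libraries held 99.8, 73.9 and 113 FPKM. The groups overlapped (log2 fold change 0.16, SE 0.21, limma adjusted p = 0.660). ELF4 was at 72.2 ± 1.3 and 70.8 ± 9.43 FPKM (log2 fold change −0.04, adjusted p = 0.908) and ELF3, its partner in the evening complex, at 43.3 ± 3.57 and 35.0 ± 10.3 FPKM (log2 fold change −0.33, adjusted p = 0.401); neither passed limma's test. Whether ELF3 and ELF4 differed from LUX, the other subunit of that complex, in their response was not tested.

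PRR7 (AT5G02810), which follows PRR9 in the day, was at 62.1, 66.0 and 59.3 FPKM for wild type, with 45.4, 17.2 and 21.0 FPKM for EsANAC029-OE (log2 fold change −1.26, limma adjusted p = 0.0816). GI (AT1G22770), which stabilises the TOC1-degrading protein ZTL, was at 30.4, 29.2 and 30.3 FPKM in the wild-type libraries, against 28.4, 9.97 and 9.80 FPKM in EsANAC029-OE replicates 1 to 3 (log2 fold change −1.03, limma adjusted p = 0.158). Both were lower in every overexpressor library, and in both replicate 1 lay nearest to wild type. Without EsANAC029-OE replicate 1 PRR7 fell by 1.67 (adjusted p = 0.00334) and GI by 1.51 (adjusted p = 0.00285). CHE (AT5G08330), a TCP factor that represses CCA1, showed the opposite order, with 6.26 FPKM in replicate 1 and 39.0 and 44.6 FPKM in replicates 2 and 3, against 68.8 to 87.9 FPKM in wild type (limma adjusted p = 0.175). Without replicate 1 CHE fell by 0.845 (adjusted p = 0.0228).

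The balance between members was read from 8 ratios of gene pairs within each library, which do not move with the scaling of a library except through the pseudocount. The log2 ratio of CCA1 to LHY was 1.29 ± 0.203 in wild type and 0.0557 ± 0.152 in EsANAC029-OE, and that of CCA1 to RVE8 was 0.879 ± 0.218 and −0.263 ± 0.0677. The groups did not overlap in either ratio. All 3 genes were under 1 FPKM in the overexpressor, where the pseudocount holds such ratios near 0, so their small spread there is no measure of how alike the libraries were. With a pseudocount of 0.1 the difference between the groups moved from −1.24 to −2.97 for CCA1 to LHY and from −1.14 to −2.67 for CCA1 to RVE8. The log2 ratio of LNK2 to RVE8, coactivator to partner, was 3.76 ± 0.104 and 1.87 ± 0.408, also without overlap. That of RVE1 to RVE7 moved the other way, from −1.88 ± 0.535 to −0.174 ± 0.385. On log2(FPKM + 1) RVE8 and RVE1 themselves differed by only −0.0536 and 0.0176. The ratios of LNK2 to RVE8 and of RVE1 to RVE7 therefore largely restate the falls of LNK2 and RVE7.

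The ratio of CCA1 to TOC1, morning to evening, was −4.94 ± 0.298 in wild type and −6.29 ± 0.448 in EsANAC029-OE on the log2 scale, and the groups did not overlap. Their difference moved from −1.35 to −3.04 with a pseudocount of 0.1. The log2 ratio of PRR9 to PRR7 was −4.88 ± 0.129 and −4.23 ± 0.251, but its difference turned from 0.65 to −0.493 with a pseudocount of 0.1. In the remaining 2 pairs the groups overlapped. LNK1 to LNK2 was −1.28 ± 0.259 and −0.033 ± 0.998 (exact permutation p = 0.2, two-sided), and RVE4 to RVE8 was 4.04 ± 0.0593 and 3.42 ± 0.741 (exact permutation p = 0.4). The other 6 pairs each had an exact permutation p of 0.1, two-sided, the smallest that 3 against 3 libraries allow, and 0.133 adjusted over the 8 pairs, so none could pass 0.05. Where LHY, CCA1, PRR9, RVE1 or RVE8 is under 1 FPKM the pseudocount sets much of the ratio.

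**Figure D3:**
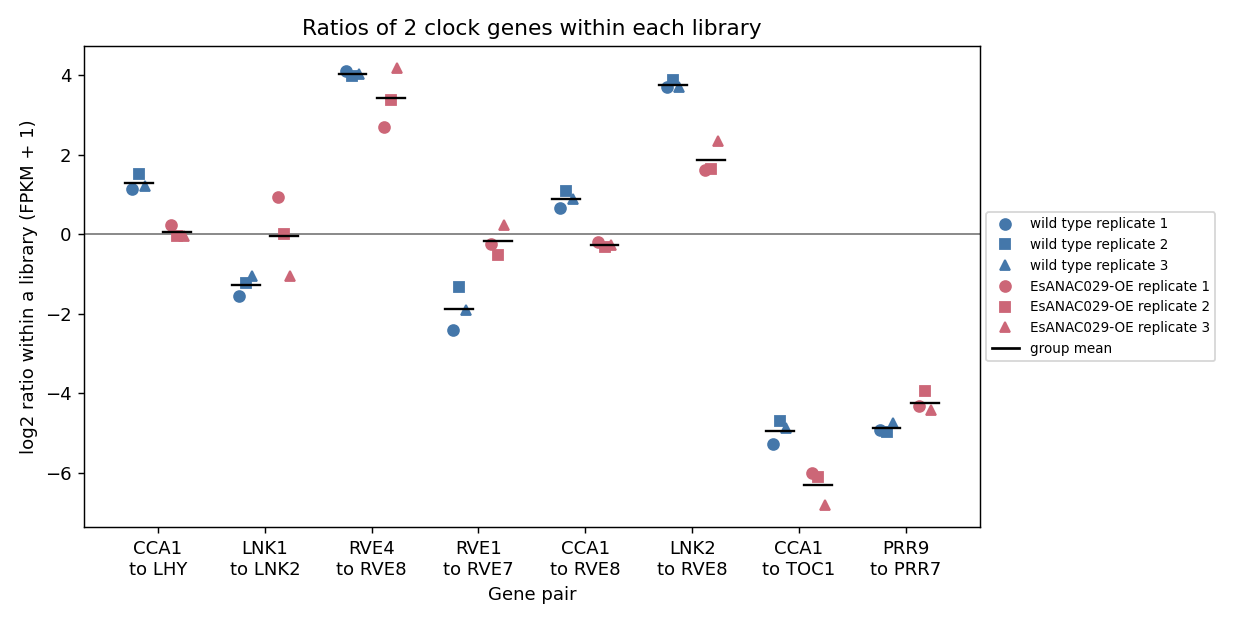
Log2 ratio of 2 genes within each library, on FPKM + 1, for 8 pairs, with bars for the group means. CCA1 to LHY, CCA1 to RVE8, LNK2 to RVE8 and CCA1 to TOC1 are lower in every EsANAC029-OE library, RVE1 to RVE7 and PRR9 to PRR7 higher, and the other two pairs overlap.

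Genes that modify clock proteins or tune the clock were read from a separate list. Of 15 such genes, all tested, none was called by limma, beside 7.89% of all tested genes. In that fit 1 had an unadjusted p under 0.05 (TPL, a corepressor that PRR proteins recruit, log2 fold change 0.55, adjusted p = 0.146), beside 4878 of all 17221 tested genes. By limma-voom none was called either, beside 821 of 17221 genes. Scaling by library total gave 3 calls, beside 3126 of all 17247 genes tested there. Of 20 genes with known daily rhythms or direct links to the members 15 were tested, 4 fell and none rose, beside 3.58% of all tested genes called lower. They were PIF4 and PIF5, bHLH factors of stem growth that the evening complex represses (log2 fold changes −1.87 and −1.73, limma adjusted p = 0.00605 and 0.0297), CAT2, a catalase gene that peaks in the morning (−2.20, adjusted p = 0.0306), and YUC8, the auxin synthesis gene under RVE1 (−1.93, adjusted p = 0.0497). LHCB1.1, an antenna gene of this list, was lower in every overexpressor library, at 3673 ± 465 and 506 ± 379 FPKM (not called, limma adjusted p = 0.0694). CAT3, the catalase gene of the evening, was at 1188 ± 116 and 1142 ± 649 FPKM (adjusted p = 0.816). Without 1 library PIF4 lost its call once (without wild type replicate 3, adjusted p = 0.0549), and PIF5, CAT2 and YUC8 were each called without EsANAC029-OE replicate 1 and not called without wild type replicate 1, 2 or 3 (0.102 to 0.165). PIF5 and CAT2 were not called without EsANAC029-OE replicate 2 (0.0619 and 0.0777) or 3 (0.0535 and 0.0551) either, nor was YUC8 without replicate 2 (0.109).

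The 5 named genes outside the lists whose centred profile over the 6 libraries was nearest to that of CCA1 were FRO4, STN7, XTH30, GRF11 and HIRD11. Their root-mean-square differences from CCA1 were 0.123 to 0.164 on log2(FPKM + 1). FRO4, a ferric reductase, was at 2.53, 2.96 and 2.85 FPKM in the controls, while the overexpressor libraries held 1.29, 0.591 and 0.304 FPKM. STN7, the kinase that phosphorylates the light-harvesting antenna, was at 56.7, 65.7 and 63.6 FPKM in the controls, with overexpressor values of 36.6, 22.0 and 26.0 FPKM. FRO4 and STN7 were called lower (limma adjusted p = 0.0451 and 0.0349), and the other three were not. Such nearness is a description over 6 libraries in which the genotypes already differ. It also holds for log2(FPKM + 1) only, where the log2 fold change of CCA1 was −1.20, against −2.88 with a pseudocount of 0.1. Nearness with that smaller pseudocount was not measured.

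**Figure D4:**
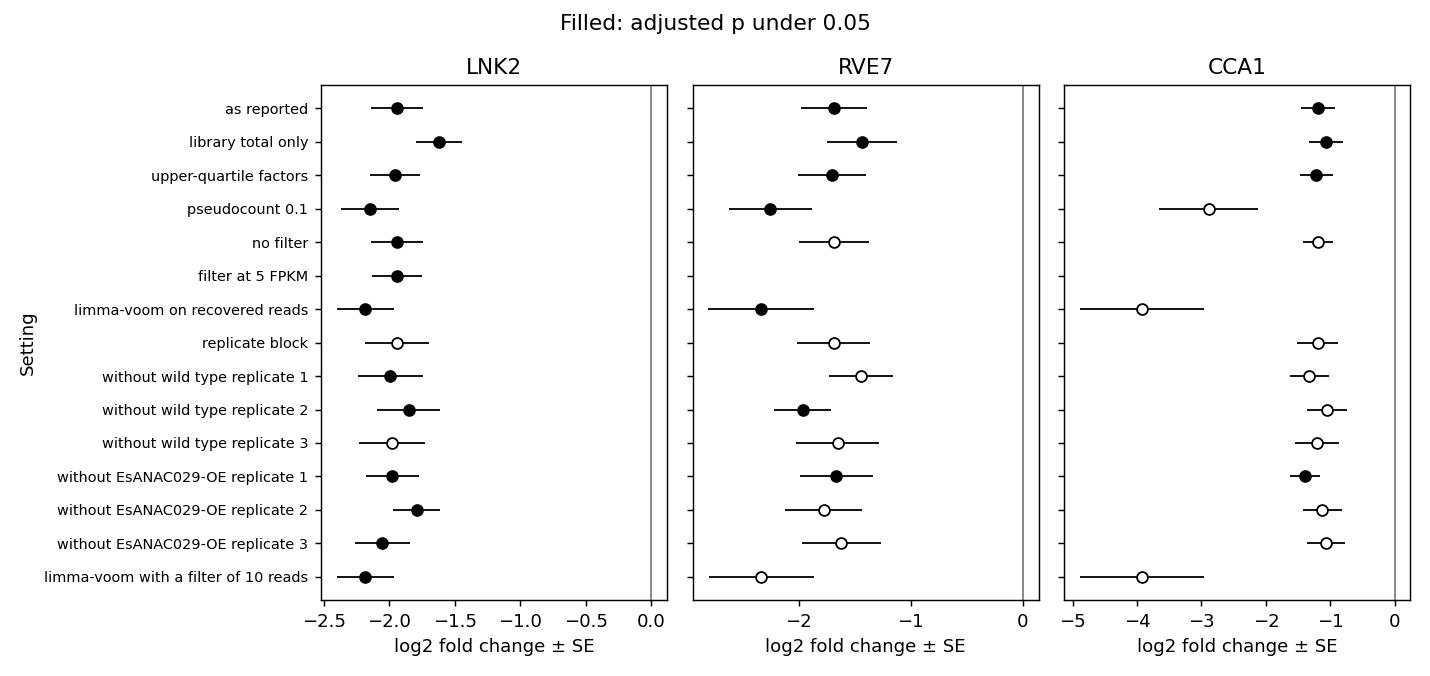
Log2 fold change ± SE of LNK2, RVE7 and CCA1 as reported and under each alternative in which they were tested; filled points have an adjusted p under 0.05. All points lie below 0, LNK2 is filled in 13 of 15 settings, RVE7 in 7 of 14 and CCA1 in 4 of 14.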

How the data were processed

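Messenger RNA was measured in 6 libraries, 3 of wild type and 3 of EsANAC029-OE, grouped by the genotype in the labels. The deposited values are FPKM, and gene length (unit: other) stands beside them in the deposited table; no unit stands in the header, and FPKM follows from the values, since 100% of them, multiplied by gene length, are whole multiples (within 1e-06) of a step of their own library. CASAVA 1.8, HISAT2 and edgeR with TAIR10 are named per the submitters' processing notes; the counter and the use of strand are not stated there. The authors' further scale was 0.872 to 0.92 for wild type and 1.06 to 1.25 for EsANAC029-OE.

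Values were fitted as log2(FPKM + 1) with limma 3.58.1 in R 4.3.3 (trended variance, two-sided) for genes that reached 1 FPKM in 3 or more libraries, adjusted over all 17221 tested genes. The fit was tested on simulated data with equal spread in both groups and no outlying library. That setting differs from these libraries, so the test does not show how the fit behaves on them. Chi-square per gene between replicates was 35.2 to 326, so no library is a copy of another. Libraries left out in turn kept the same tested genes. Pair ratios used exact permutation tests in scipy 1.17.1. Windows upstream of genes came from TAIR10.1, where 32532 of 32962 genes have identical coordinates, as do all listed clock genes.

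The members and lists were chosen with earlier results of these data known. Named are the 10 members, the other REVEILLE and LNK genes, 7 day and evening genes (TOC1, PRR7, PRR5, GI, ELF3, ELF4 and LUX), up to 4 called genes of each other list, and the 5 nearest to CCA1; CHE, TPL, LHCB1.1 and CAT3 were chosen after their values were seen. The alternatives were library total or upper-quartile scaling, a pseudocount of 0.1, no filter or one at 5 FPKM, limma-voom on the recovered reads, a threshold of 0.01, a replicate block and each library left out.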

Additional observations from a re-analysis of the deposited data

How the results depend on the processing

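All genes called numbered 1359 as reported, 117 at an adjusted p under 0.01, 3126 scaled by library total, 819 with no filter, 821 by limma-voom, 738 by limma-voom with a filter of 10 reads (chosen after seeing the data) and 66 to 3073 with 1 library left out. Members called numbered 3 as reported, and 1 at 0.01, with no filter, with a filter of 5 FPKM (where RVE7 and CCA1 were not tested) and by limma-voom with 10 reads, and 0 to 5 with 1 library left out. Day and evening genes called numbered 2, then 0 at 0.01, 1 by library total, no filter and either limma-voom, and 0 to 5 with 1 library left out. Other REVEILLE and LNK genes called numbered 1, or 1 to 2 with 1 library left out. Output genes called numbered 4, then 1 at 0.01, 2 by either limma-voom, and 0 to 8 with 1 library left out. With the replicate block 16 genes were called over all. It called 0 of the members, day and evening genes, other REVEILLE and LNK genes and output genes. Deviations of same-numbered libraries from their group means had r = −0.199, −0.0531 and −0.105 for numbers 1, 2 and 3. Libraries with different numbers had r from −0.318 to 0.360. With 3 libraries per group these values cannot show whether same-numbered libraries shared a planting or a batch. Scaling by library total moved the median of all tested genes from −0.00914 to 0.311 and left 377 fallen against 2749 risen genes, beside 616 and 743. There LNK2, RVE7 and CCA1 fell as well, and PRR9 did not reach the filter.

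Each of LNK2, RVE7 and CCA1 stayed below 0 under the 13 or 14 alternatives that tested it. Their log2 fold changes were −2.18 to −1.62, −2.33 to −1.43 and −3.92 to −1.06. Since their groups did not overlap, leaving out a library could not turn the sign. The filters and the replicate block leave the estimate of this fit unchanged, so those alternatives are no test of direction. RVE6, never called, turned to 0.265 with library total, and ranged from −0.335 to 0.126 with 1 library left out, at 0.103, 0.0458 and 0.126 without wild type replicate 3, EsANAC029-OE replicate 2 and EsANAC029-OE replicate 3. The ratio of PRR9 to PRR7 turned to −0.493 with a pseudocount of 0.1; the cause of these changes was not tested. The other 7 ratios kept their direction under all 8 alternatives. Where the groups of a ratio did not overlap, leaving out a library could not turn its sign. The replicate block leaves the difference of every ratio unchanged, so it is no test of direction. With that block the exact sign-flip p of a ratio cannot go below 0.25. Depth limits LHY, RVE8, PRR9 and CCA1, which rest on as few as 1 to 12 reads in their lowest library.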
